A study of Mus musculus with 4 samples.

Results

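Astrocytes clear glutamate from the extracellular space, buffer potassium and water, and share ions and metabolites through gap junctions, and after injury or disease many of them raise filament and other reactive genes. The 10 genes of astrocyte homeostasis and reactivity described here were measured in nuclei of the mouse cortex. They are the glutamate transporters Slc1a2 and Slc1a3, glutamine synthetase Glul, the sodium bicarbonate cotransporter Slc4a4, the potassium channel Kcnj10, the water channel Aqp4, the gap junction gene Gja1, the intermediate filament genes Gfap and Vim, and Ggta1, a glycosyltransferase gene often listed among reactive astrocyte genes. Each was matched by its symbol to 1 of the 32285 genes listed, and all 10 were found. Levels were read in astrocyte nuclei, split by the presence of Def8 UMIs, and in the other classes of nuclei. A UMI is a molecular tag that marks 1 captured RNA molecule.

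Nuclei came from the cortex of 5-month-old C57BL/6 mice, 2 Setdb1-CK-cKO animals (knockout) and 2 wildtype animals, each giving 1 library made with 10x 3′ chemistry. The Setdb1 product is a histone H3 lysine 9 methyltransferase. The labels give neither the allele, the deleted exon nor what CK stands for, so which cells lost Setdb1 is not known from them. The 4 libraries kept 11176 and 13269 nuclei from knockout and 13883 and 13712 nuclei from wildtype animals, 52040 in all, and each library held between 38314394 and 45605971 UMIs. Setdb1 measured 46.3 and 44.5 CPM (its UMIs scaled to a common total for the class in each library) in knockout astrocytes and 43.2 and 30.1 CPM in wildtype astrocytes (log2 fold change 0.30 ± 0.24, edgeR adjusted p = 0.671), and 3′ tags outside a deleted part check nothing. Xist and the Y-linked Uty, in all named classes, measured 0.972 and 81.7 CPM in knockout replicate 1 and 1396 and 0.031 CPM in knockout replicate 2, the opposite of the sex listed for both. In wildtype replicates 1 and 2 they measured 1.67 and 90.1 CPM and 1019 and 0.135 CPM, as listed, so the listed sex was not used. By these 2 genes, libraries with the same replicate number are alike across genotypes. Any pair of libraries shared 43 to 58 cell barcodes.

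The astrocyte class was 1 cluster of 3474 nuclei, formed without the 10 genes and Def8 among the clustering genes and named without them. All 15 astrocyte markers listed beside the 10 genes were detected in every library, and all 14 that no other list shares were at least 2 times higher there than in the other nuclei, which describes the cluster and tests nothing. A further 2 clusters with 13 of these 14 raised were left unnamed, 1 with excitatory neuron and 1 with oligodendrocyte markers. The first held 7 and 51 knockout and 18 and 33 wildtype nuclei, the second 2 and 4 knockout and 48 and 33 wildtype nuclei. With both added to the class 0 members passed by genotype, beside 39 of 12273 genes (0.318%). The summed level of the 15 was 11076 and 10888 CPM in knockout and 11172 and 10230.1 CPM in wildtype astrocytes. The class held 660 and 796 knockout nuclei (5.91% and 6.00% of each library) and 1030 and 988 wildtype nuclei (7.42% and 7.21%), with a median of 1491.5 and 1182.5 UMIs in knockout and 1490.0 and 1304.5 UMIs in wildtype nuclei. Markers of other cells were present at low levels in both genotypes. The 10 microglia markers summed to 213.9 and 266.3 CPM in knockout and 182.3 and 217.3 CPM in wildtype astrocytes, and the 12 excitatory neuron markers to 1860.2 and 2244 CPM in knockout and 1843 and 1943 CPM in wildtype astrocytes. Def8 was found in 30.9% and 39.3% of knockout astrocyte nuclei (exact 95% intervals 27.4% to 34.6% and 35.9% to 42.8%, counting error only), against 2.52% and 2.33% of wildtype astrocyte nuclei. In oligodendrocytes, whose nuclei had medians of 864 to 1030.0 UMIs, the share was 3.10% and 2.97% in knockout and 1.90% and 1.81% in wildtype nuclei. The wildtype astrocyte share was near these, and whether it is background or low expression was not tested.

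Upstream sequences of 4 genes are shown because these are the members with an unadjusted p under 0.05 between genotypes in astrocytes. Each is the 250 bases before a RefSeq start (GRCm38.p6, read on the strand of the gene). Of the 10 genes 9 had an entry, and windows that overlap an annotated exon were left out. Slc4a4 has a pair of entries, and the window shown is the one free of exon bases, inside the gene. The Gfap and Ggta1 windows also lie inside the annotated span of their genes, and the Slc1a3 window lies outside it. Capitals mark 4 motifs searched on both strands: TTCNNNGAA, the STAT motif, in 7.02% of 32851 RefSeq windows of the same length; TGANTCA, the AP-1 motif, in 6.75%; GGGCGG, the GC box, in 32.7%; and TATAAA, the TATA box, in 12.4%. A match is a description of the letters only.
Slc1a3, minus strand, chr15:8710808-8711057: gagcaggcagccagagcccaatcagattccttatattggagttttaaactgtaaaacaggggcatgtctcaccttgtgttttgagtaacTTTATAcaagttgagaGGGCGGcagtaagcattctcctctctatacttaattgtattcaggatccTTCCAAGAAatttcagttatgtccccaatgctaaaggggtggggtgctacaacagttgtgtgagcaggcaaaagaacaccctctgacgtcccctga
Slc4a4, plus strand, chr5:89027716-89027965: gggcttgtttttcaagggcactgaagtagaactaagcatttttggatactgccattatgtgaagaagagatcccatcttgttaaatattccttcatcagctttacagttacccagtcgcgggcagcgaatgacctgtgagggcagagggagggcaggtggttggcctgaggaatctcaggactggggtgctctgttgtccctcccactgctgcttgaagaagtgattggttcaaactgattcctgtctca
Gfap, minus strand, chr11:102897201-102897450: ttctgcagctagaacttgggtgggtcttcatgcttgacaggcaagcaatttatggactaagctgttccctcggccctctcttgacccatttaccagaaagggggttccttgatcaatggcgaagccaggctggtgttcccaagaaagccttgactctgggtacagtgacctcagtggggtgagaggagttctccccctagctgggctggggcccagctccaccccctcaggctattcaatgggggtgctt
Ggta1, minus strand, chr2:35461450-35461699: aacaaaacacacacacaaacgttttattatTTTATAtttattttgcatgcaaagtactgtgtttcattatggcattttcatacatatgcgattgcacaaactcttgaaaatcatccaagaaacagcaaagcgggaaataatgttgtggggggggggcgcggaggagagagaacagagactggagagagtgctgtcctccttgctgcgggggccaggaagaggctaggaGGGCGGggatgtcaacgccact
The Slc1a3 window holds 1 STAT motif, 1 GC box and 1 TATA motif, and the Ggta1 window 1 GC box and 1 TATA motif, none of them overlapping. None of the 4 motifs is in the Slc4a4 or the Gfap window. CpG pairs number 2 in the Slc1a3 window, 3 in the Slc4a4 window, 2 in the Gfap window and 8 in the Ggta1 window, against a median of 6 over all windows.

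Of the 10 genes 7 were highest in astrocytes, with every astrocyte library above every library of the next class by mean: Slc1a2, Slc1a3, Glul, Slc4a4, Aqp4, Gja1 and Gfap. These levels describe the classes and carry no test. Slc1a2, the main glutamate transporter of forebrain astrocytes, averaged 6216 CPM over the 4 astrocyte libraries (range 5513 to 6634), and oligodendrocyte precursors came next with 463 CPM (431 to 491). From there down to 341 CPM in oligodendrocytes neighbouring classes overlapped. Slc1a3, the other astrocyte glutamate transporter, averaged 1774 CPM in astrocytes (1328 to 2185), fibroblasts were next with 490.03 CPM (427 to 619), and microglia followed with 263 CPM (242 to 281). Glul, which turns glutamate into glutamine, averaged 431 CPM (319 to 555) in astrocytes, and 171 CPM (153 to 206) in oligodendrocytes, the next class.

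Slc4a4, which moves bicarbonate with sodium, averaged 948 CPM in astrocytes (823 to 1079). Mural cells came next with 291 CPM, but their 4 libraries ranged from 42.8 to 642 CPM, and overlapped fibroblasts at 279 CPM. Kcnj10, an inward rectifier that takes up potassium, was not highest in astrocytes: it averaged 77.6 CPM there (62.7 to 87.1) and 78.3 CPM in oligodendrocytes (64.7 to 89.9), with overlapping libraries. Aqp4, the water channel of astrocyte endfeet, averaged 67.1 CPM in astrocytes (55.8 to 80.0) and 48.7 CPM in oligodendrocyte precursors (39.2 to 55.1), which in turn were clear of microglia. Gja1, which encodes connexin 43, averaged 144.7 CPM in astrocytes (136.0 to 153.8) and 72.9 CPM in fibroblasts (46.2 to 101.9).

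The reactive genes had fewer UMIs. Gfap, the astrocyte filament gene, averaged 29.5 CPM in astrocytes (18.4 to 43.5), and fibroblasts followed with 9.15 CPM (2.97 to 15.4). Endothelial cells of knockout replicate 1 held 22.1 CPM of Gfap, from 1 UMI, above both wildtype astrocyte libraries. Ggta1 was highest in microglia, with 81.3 CPM (72.2 to 93.5), followed by mural cells with 50.2 CPM (25.02 to 72.0) and astrocytes with 13.6 CPM (6.27 to 21.7). Vim, the vimentin filament gene, averaged 3.37 CPM in astrocytes (0.734 to 5.06), below fibroblasts with 12.2 CPM (9.70 to 14.8). Endothelial libraries spread from 0 to 88.5 CPM of Vim, from at most 5 UMIs a library. Slc17a7, a gene of excitatory neurons, measured 291.3 and 370.0 CPM in knockout and 308.4 and 409.0 CPM in wildtype oligodendrocytes, and 259.1 and 278.9 CPM in knockout and 236.2 and 262.0 CPM in wildtype excitatory neurons. The part of such RNA from other nuclei in the low levels given here was not tested.

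**Figure D1:**
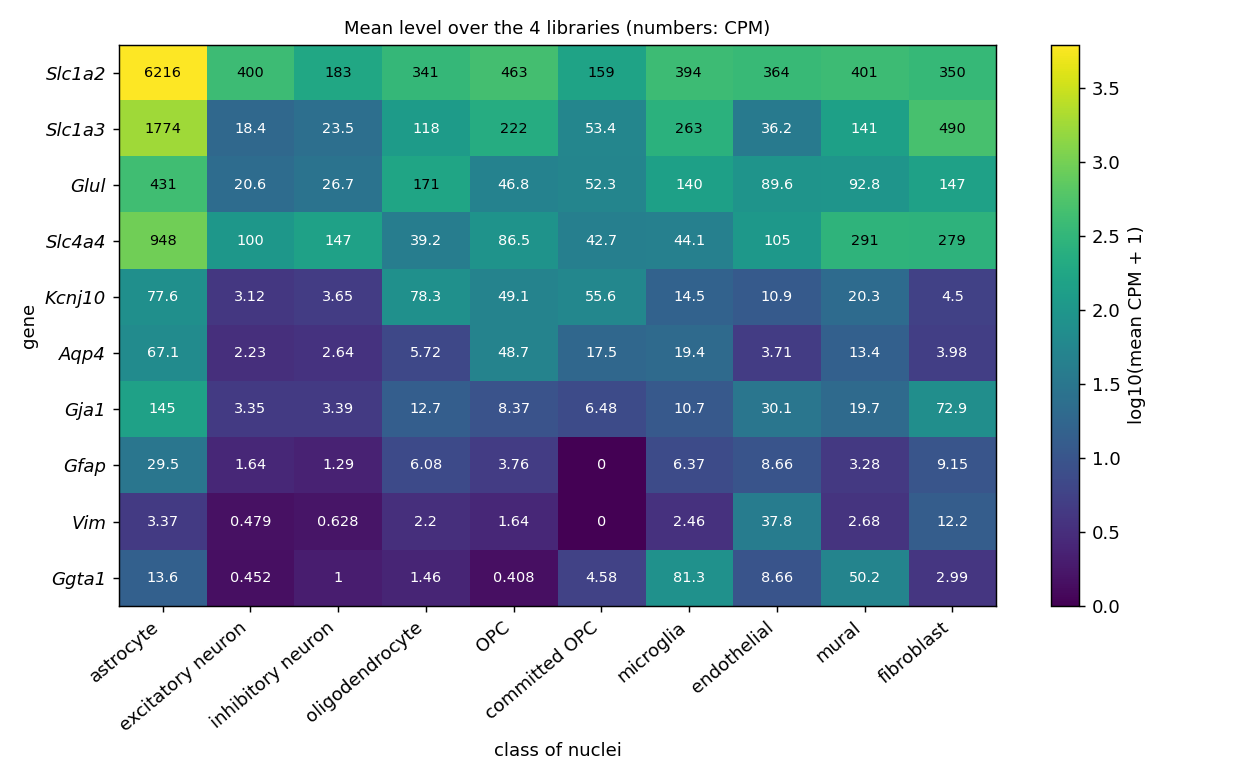
Mean level of each gene (rows) in each class of nuclei (columns; OPC, oligodendrocyte precursor), in CPM over the 4 libraries, coloured by log10(mean CPM + 1). Of the 10 genes 7 are highest in astrocytes, Slc1a2 with 6216 CPM among them, while Kcnj10 is as high in oligodendrocytes (78.3 CPM) and Ggta1 is highest in microglia (81.3 CPM).

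By a rule on likeness, the 3 genes with the highest Pearson r to each member were listed over 40 sums (10 classes in 4 libraries) on a log2(CPM + 1) scale, among 10847 genes with at least 10 CPM in astrocytes. The sums share libraries and depth, so r describes only how alike the patterns are. Nearest to Slc1a2 was Cpe, which encodes carboxypeptidase E (r = 0.951), and nearest to Slc1a3 was Mfge8, which encodes a secreted glycoprotein that bridges dying cells to phagocytes (r = 0.864). Gstm1 (0.827) and Clu (0.822), which encodes clusterin, were among the 3 nearest to Glul, and Vcl (0.862), which encodes vinculin, was nearest to Slc4a4. Bcan (0.810), the brevican gene, and Ednrb (0.809), an endothelin receptor gene, were nearest to Aqp4. Gfap came closest to Rxra (0.800), a retinoid receptor gene, Kcnj10 to 2610035D17Rik (0.785), Gja1 to Atf7 (0.812), Ggta1 to Cebpg (0.784) and Vim to Trim34a (0.678).

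None of the 10 genes passed the test on genotype alone between knockout and wildtype astrocytes. The largest fold changes were those of the reactive genes Ggta1 (log2 1.58 ± 0.38) and Gfap (1.01 ± 0.26), followed by Slc1a3 (-0.46 ± 0.12) and Slc4a4 (0.35 ± 0.13). Vim had too few UMIs to be tested. Of 11639 genes tested in astrocytes, 137 passed (1.18%), against 0 of the 9 members tested (edgeR quasi-likelihood, Benjamini-Hochberg adjusted p under 0.05, n = 2 animals per genotype), and 4 members had an unadjusted p under 0.05, beside 1512 genes (13%). DESeq2 called 0 members as well, beside 47 genes (0.404%). The median log2 fold change of the 9 members was 0.19, beside 0.01 over all genes tested. The knockout pair of libraries stood above the wildtype pair for 6 of the 10 genes and below it for 2, and the pairs overlapped for 2. The 6 include Vim, which was not among the genes tested. Over all 11639 genes tested the pair stood above for 22.2% and below for 20.5%.

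Of the glutamate genes, Slc1a3 (ENSMUSG00000005360, chr15:8634124-8710764) measured 1655 and 1328 CPM in knockout and 2185 and 1929 CPM in wildtype astrocytes. Both knockout libraries were below both wildtype libraries (log2 fold change -0.46 ± 0.12, edgeR adjusted p = 0.0865). Slc1a2 (ENSMUSG00000005089, chr2:102658659-102790784) measured 6269 and 5513 CPM in knockout and 6634 and 6448 CPM in wildtype astrocytes, again without overlap but by a small step (-0.15 ± 0.08, adjusted p = 0.446). Glul (ENSMUSG00000026473, chr1:153899944-153909723) measured 555 and 319 CPM in knockout astrocytes, on both sides of the 462 and 388 CPM in wildtype astrocytes (0.04 ± 0.20, adjusted p = 0.968).

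Of the ion, water and junction genes, Slc4a4 (ENSMUSG00000060961, chr5:88886818-89239653) measured 1043 and 1079 CPM in knockout and 823 and 848 CPM in wildtype astrocytes, without overlap (log2 fold change 0.35 ± 0.13, edgeR adjusted p = 0.226). Kcnj10 measured 77.9 and 87.1 CPM in knockout and 62.7 and 83.0 CPM in wildtype astrocytes, which overlapped. Aqp4 measured 68.0 and 80.0 CPM in knockout and 64.5 and 55.8 CPM in wildtype astrocytes. Gja1 measured 153.8 and 151.9 CPM in knockout and 136.0 and 137.3 CPM in wildtype astrocytes. For Aqp4 and Gja1 the knockout libraries were the higher ones, and the log2 fold changes of these 3 genes were 0.16 to 0.29, with edgeR adjusted p between 0.580 and 0.758.

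Gfap (ENSMUSG00000020932, chr11:102887336-102900912) measured 35.5 and 43.5 CPM in knockout and 20.7 and 18.4 CPM in wildtype astrocytes, from 36 and 43 UMIs in knockout and 33 and 25 UMIs in wildtype nuclei. The groups did not overlap, and the log2 fold change was 1.01 ± 0.26 (edgeR adjusted p = 0.0778). Ggta1 (ENSMUSG00000035778, chr2:35400179-35463231) measured 21.7 and 19.2 CPM in knockout and 6.27 and 7.34 CPM in wildtype astrocytes, also without overlap (1.58 ± 0.38, adjusted p = 0.0525). It rested on 22 and 19 UMIs in knockout and 10 and 10 UMIs in wildtype nuclei. Ggta1 is a gene of microglia in these data, and the part of the microglia markers given above in its value was not tested. In microglia themselves Ggta1 measured 93.5 and 74.5 CPM in knockout and 72.2 and 84.8 CPM in wildtype nuclei, which overlapped. Vim measured 3.94 and 5.06 CPM in knockout and 3.76 and 0.734 CPM in wildtype astrocytes, from 9 and 7 UMIs in all. Cytosolic ribosomal protein genes summed to 10961 and 12740 CPM in knockout and 7808 and 9301 CPM in wildtype astrocytes, and their part in these values was not tested.

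Several results depended on 1 library or 1 setting. A fit without 1 library leaves 1 animal in a genotype, so p-values of such fits are not given. With the replicate number as a term, which also parts the libraries by Xist and Uty, 843 genes passed (7.24%), and so did Slc1a3 (-0.47, edgeR adjusted p = 6.75e-06), Slc4a4 (0.35, adjusted p = 0.00402), Gfap (1.0, adjusted p = 0.00531) and Ggta1 (1.59, adjusted p = 0.00307). The log2 fold change of Slc1a3 was -0.57 without wildtype replicate 2 and -0.62 without knockout replicate 1. That of Gfap was 1.16 without knockout replicate 1. With no filter on low counts Slc1a3, Gfap and Ggta1 passed, with adjusted p = 0.000801, 0.0484 and 0.0118. With DESeq2's size factors in edgeR Ggta1 passed (adjusted p = 0.0494), and with doublets kept Slc1a3 (adjusted p = 0.0407) and Ggta1 (adjusted p = 0.0337) did.

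**Figure D2:**
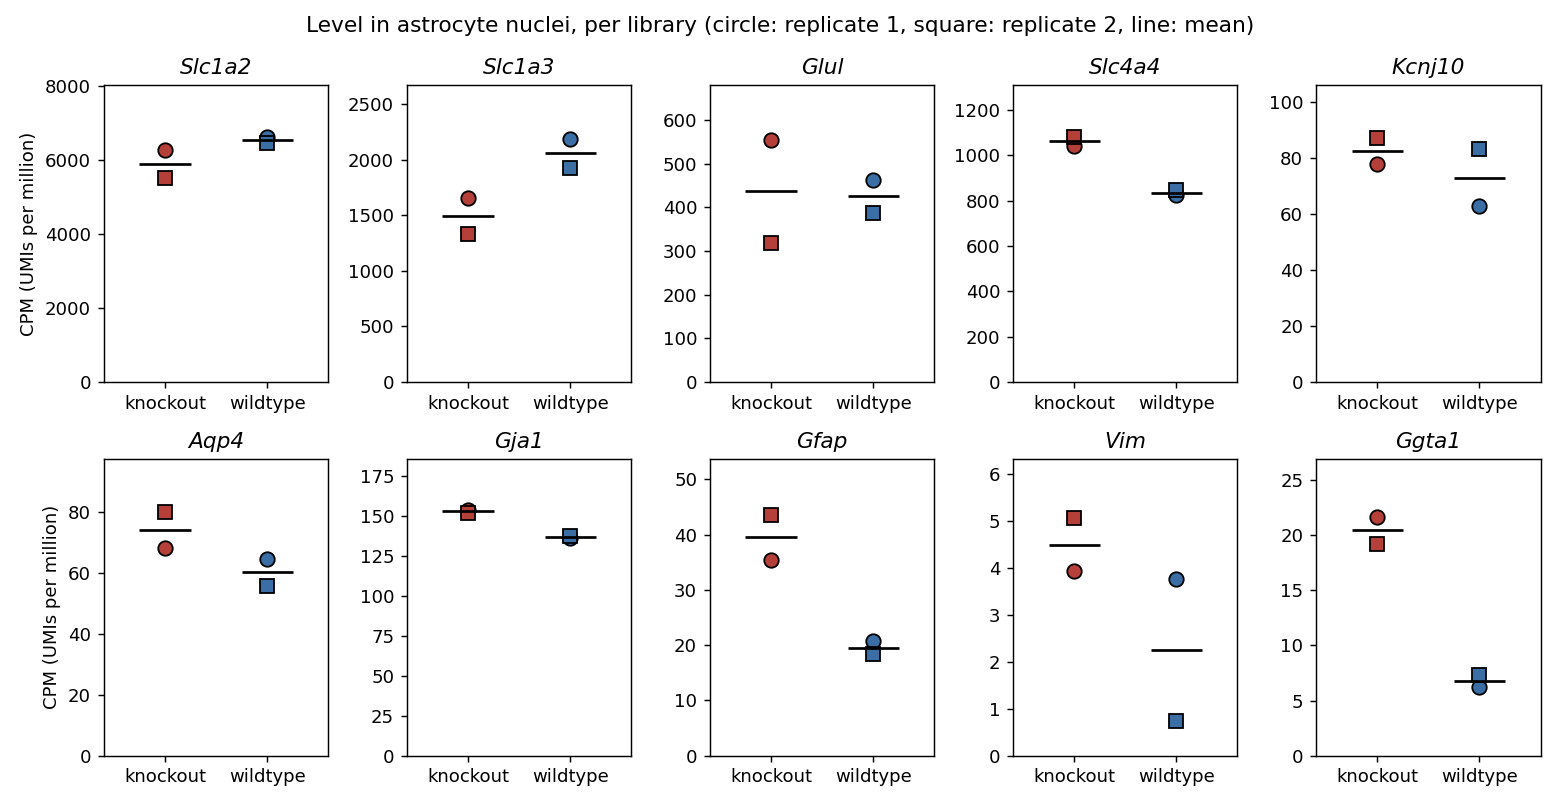
Level of each gene in astrocyte nuclei in CPM, 1 point per library (knockout left, wildtype right; the line is the mean of 2 libraries; each axis starts at 0). Gfap measured 35.5 and 43.5 CPM in knockout against 20.7 and 18.4 CPM in wildtype astrocytes, and Slc1a3 1655 and 1328 CPM against 2185 and 1929 CPM, while the groups overlap for Glul and Kcnj10.

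Other genes of the same roles mostly did not pass in astrocytes. Of 14 further glutamate and GABA uptake and recycling genes, all tested, 1 rose and 0 fell, with a median log2 fold change of 0.03. The one that rose was Slc6a9, a glycine transporter gene, with 51.3 and 49.6 CPM in knockout and 18.8 and 18.4 CPM in wildtype astrocytes (1.44 ± 0.24, edgeR adjusted p = 0.00447). Of 15 potassium, water and pH genes 0 passed (median 0.01), among them Slc12a2, a sodium, potassium and chloride cotransporter gene, with 26.6 and 26.3 CPM in knockout and 32.6 and 39.6 CPM in wildtype astrocytes (-0.44 ± 0.25, adjusted p = 0.499). Of 3 junction genes tested 0 passed, among them Gjb6, which encodes connexin 30, with 71.0 and 30.4 CPM in knockout and 100.9 and 74.9 CPM in wildtype astrocytes (-0.80 ± 0.27, adjusted p = 0.191). Cldn10 of the same list measured 66.0 and 86.1 CPM in knockout and 63.3 and 62.4 CPM in wildtype astrocytes (0.28 ± 0.20, adjusted p = 0.611). Of 5 filament and cytoskeleton genes tested 0 passed, Ezr being nearest (-0.54 ± 0.23, adjusted p = 0.323) and Lmna next (0.21 ± 0.23, adjusted p = 0.791).

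Of 20 other genes of astrocyte function 1 rose, Apoe, the apolipoprotein E gene, with 1079 and 1784 CPM in knockout and 642 and 787 CPM in wildtype astrocytes (log2 fold change 1.01 ± 0.18, edgeR adjusted p = 0.00814). Of 36 further reactive astrocyte genes only 8 had enough UMIs to be tested, and of these 8, 1 rose, C4b, which encodes complement component 4, with 58.2 and 93.1 CPM in knockout and 20.7 and 12.5 CPM in wildtype astrocytes (2.16 ± 0.29, adjusted p = 0.00055). C4b has a near-identical neighbour, C4a, with which reads may be shared. The median over the 8 was 0.42, beside 0.01 over all genes. Genes not tested include Lcn2, C3, Serpina3n, Osmr, Timp1 and Cxcl10, all known from reactive astrocytes.

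The knockout astrocytes were then split by Def8, whose level rose to 826 and 794 CPM in knockout astrocytes, against 16.3 and 16.9 CPM in wildtype astrocytes (log2 fold change 5.60 ± 0.19, edgeR adjusted p = 3.2e-12). Nuclei with at least 1 Def8 UMI numbered 204 and 313 in knockout and 26 and 23 in wildtype astrocytes, and those without numbered 456 and 483 in knockout and 1004 and 965 in wildtype astrocytes. Nuclei with Def8 UMIs were somewhat deeper, with medians of 1587 and 1275 UMIs, against 1448.5 and 1116 UMIs without, in the knockout libraries. Over all 4 libraries, with the library as a block, 0 of 8 members tested passed between nuclei with and without Def8 UMIs, beside 79 of 8296 genes (0.952%), and 3 members had an unadjusted p under 0.05, beside 7.41% of genes. Slc1a3 had the smallest p (-0.33 ± 0.09, edgeR adjusted p = 0.0654). It passed with each nucleus thinned to 1000 UMIs (-0.36, edgeR adjusted p = 0.0355), and its fold change was -0.45 without wildtype replicate 1.

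Within the knockout libraries alone, a comparison added after the data were seen, Slc1a3 was lower and Slc4a4 higher in nuclei with Def8 UMIs. Of 8464 genes 186 passed (2.2%), against 2 of 9 members. With 2 animals and 4 sums the test has few degrees of freedom of its own and borrows the spread from other genes. Slc1a3 measured 1309.9 and 1079 CPM with and 1821 and 1513 CPM without Def8 UMIs in knockout replicates 1 and 2 (log2 fold change -0.51 ± 0.07, edgeR adjusted p = 5.59e-07). Slc4a4 measured 1222 and 1253 CPM with and 957 and 951 CPM without (0.35 ± 0.08, adjusted p = 0.00225). For both genes each library moved the same way, and the 2 sets did not overlap. Both also passed with nuclei thinned to 1000 UMIs and between nuclei with at least 2 and with 0 Def8 UMIs.

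Gfap measured 57.6 and 61.9 CPM with and 24.8 and 29.9 CPM without Def8 UMIs in the knockout libraries, from 19 and 26 UMIs with and 17 and 17 UMIs without. The sets did not overlap, and the difference missed the threshold (log2 fold change 1.10 ± 0.33, edgeR adjusted p = 0.0661). Aqp4 measured 100.1 and 92.9 CPM with and 52.6 and 70.4 CPM without (0.62 ± 0.24, adjusted p = 0.266), and Kcnj10 109.2 and 97.6 CPM with and 62.8 and 79.2 CPM without (0.51 ± 0.23, adjusted p = 0.397). Both had the nuclei with Def8 UMIs higher in each library. Ggta1 measured 30.3 and 21.4 CPM with and 17.5 and 17.6 CPM without (0.52 ± 0.46). Slc1a2 measured 6268 and 5579 CPM with and 6269 and 5465 CPM without, a log2 difference of -0.01 ± 0.05. For Slc1a2, Glul, Gja1 and Vim the 2 knockout libraries differed in direction. The 15 astrocyte markers summed to 11798 and 11740 CPM with and 10728 and 10258 CPM without Def8 UMIs, and their part in these differences was not tested.

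Among the other lists, 2 of 14 glutamate and GABA genes rose in knockout nuclei with Def8 UMIs, Slc6a9 (log2 fold change 1.16 ± 0.31, edgeR adjusted p = 0.0211) and Slc25a18, a mitochondrial glutamate carrier gene (0.94 ± 0.18, adjusted p = 0.000254), and 0 fell. Of 20 other astrocyte genes 3 rose: Apoe, with 1386 and 2276 CPM with and 932 and 1420 CPM without (0.61 ± 0.07, adjusted p = 2.99e-09), Lrig1 (0.91 ± 0.20, adjusted p = 0.00304) and Gpc5 (0.17 ± 0.05, adjusted p = 0.0406). Of 5 reactive genes tested 1 rose, C4b, with 106.1 and 126.2 CPM with and 35.1 and 68.7 CPM without (1.14 ± 0.24, adjusted p = 0.00192). Gpc5 is also among the astrocyte markers.

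**Figure D3:**
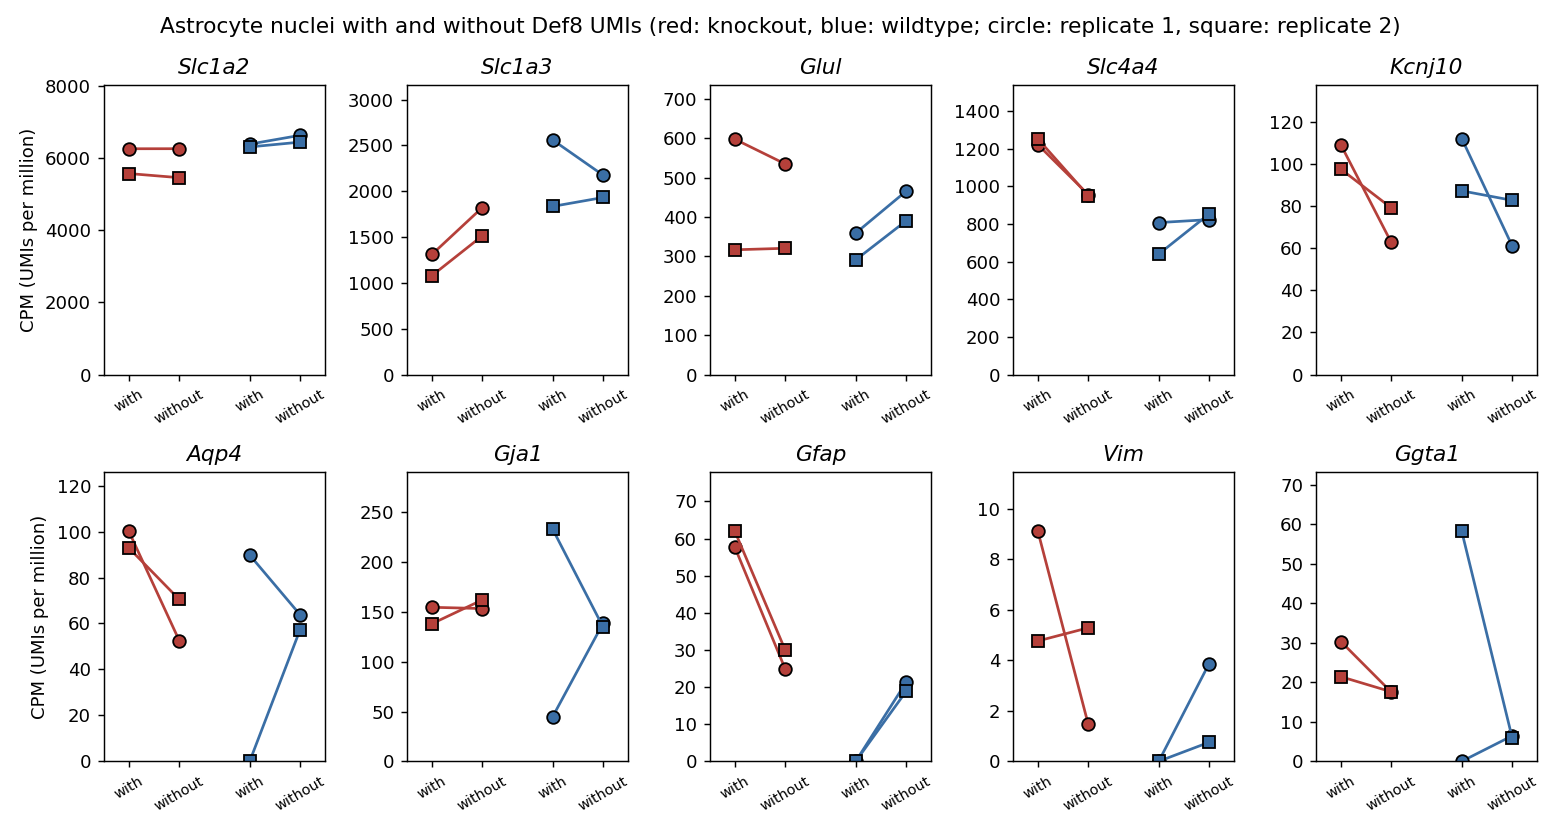
Level of each gene in CPM in astrocyte nuclei with and without Def8 UMIs, with a line joining the 2 sums of 1 library (knockout in red on the left, wildtype in blue on the right). In both knockout libraries Slc1a3 is lower (1309.9 and 1079 against 1821 and 1513 CPM) and Slc4a4 and Gfap are higher in nuclei with Def8 UMIs, while the wildtype sets with Def8 UMIs rest on 26 and 23 nuclei.

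Set against wildtype, knockout astrocytes with Def8 UMIs had 0 of 8 members past the test, beside 10 of 4404 genes (0.227%), and 3 members had an unadjusted p under 0.05, beside 9.9% of genes. Slc1a3 measured 1309.9 and 1079 CPM in knockout and 2558 and 1834 CPM in wildtype nuclei with Def8 UMIs (log2 fold change -0.83 ± 0.21, edgeR adjusted p = 0.195). Without wildtype replicate 2 its fold change was -1.01. Slc4a4 measured 1222 and 1253 CPM in knockout and 808 and 641 CPM in wildtype nuclei with Def8 UMIs (0.82 ± 0.22, adjusted p = 0.237). Without wildtype replicate 1 its fold change was 1.10. Gfap measured 57.6 and 61.9 CPM in knockout nuclei with Def8 UMIs, and no Gfap UMI was found in the 49 wildtype nuclei with Def8 UMIs. Over the 78904 UMIs of both wildtype sets together, a floor of 3 UMIs is 38.0 CPM (counting error only), beside 60.02 CPM in the knockout sets together. Pooled nuclei are not replicates of a genotype, so no bound on the fold change is drawn. Wildtype astrocytes without Def8 UMIs measured 21.3 and 18.8 CPM, under that floor, so the 0 UMIs do not set these nuclei apart from them. The test across animals did not pass (edgeR adjusted p = 0.284), nor did any alternative that gave a value, DESeq2 included.

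In astrocytes without Def8 UMIs 0 of 9 members passed, beside 84 of 11156 genes (0.753%), and 3 members had an unadjusted p under 0.05, beside 11.4% of genes. Slc1a3 measured 1821 and 1513 CPM in knockout and 2175 and 1931 CPM in wildtype nuclei (log2 fold change -0.31 ± 0.12, edgeR adjusted p = 0.253). Slc4a4 measured 957 and 951 CPM in knockout and 824 and 853 CPM in wildtype nuclei (0.18 ± 0.13, adjusted p = 0.676). Gfap measured 24.8 and 29.9 CPM in knockout and 21.3 and 18.8 CPM in wildtype nuclei (0.42 ± 0.34, adjusted p = 0.708), and Ggta1 17.5 and 17.6 CPM in knockout and 6.45 and 6.03 CPM in wildtype nuclei (1.46 ± 0.49, adjusted p = 0.165). For these 4 genes, and for Slc1a2 and Gja1, the knockout and wildtype libraries did not overlap. In astrocytes as a whole the same held for 42.7% of all genes tested, and the share in nuclei without Def8 UMIs was not counted. The further lists gave Apoe (0.71 ± 0.16, adjusted p = 0.0229) and C4b (1.59 ± 0.33, adjusted p = 0.0193) as higher, and Fkbp5, a glucocorticoid-induced chaperone gene, as lower in knockout nuclei without Def8 UMIs, with 111.0 and 29.9 CPM in knockout and 203.0 and 123.5 CPM in wildtype nuclei (-1.18 ± 0.29, adjusted p = 0.0407).

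The test of whether the genotype difference itself differed between nuclei with and without Def8 UMIs called 0 of 9 members, beside 9 of 9806 genes (0.0918%), and 5 members had an unadjusted p under 0.05, beside 7.1% of genes. Slc4a4 came nearest, with a difference of 0.79 ± 0.21 log2 units (edgeR adjusted p = 0.0967), where the median over all genes was 0.29. Without wildtype replicate 1 the difference was 1.17 for Slc4a4 and 0.42 for Slc1a2. The Gfap term rests on wildtype sets with 0 UMIs and its fitted value is not given.

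Outside astrocytes the member that changed in most classes was Slc1a2, which fell in 3 neuron and glia classes. In excitatory neurons it measured 368 and 333 CPM in knockout and 443 and 456 CPM in wildtype nuclei (log2 fold change -0.39 ± 0.08, edgeR adjusted p = 0.0248). In inhibitory neurons it measured 153.4 and 157.0 CPM in knockout and 195.8 and 225.9 CPM in wildtype nuclei (-0.46 ± 0.10, adjusted p = 0.0352), and in oligodendrocytes 265.0 and 261.2 CPM in knockout and 392.7 and 444.9 CPM in wildtype nuclei (-0.65 ± 0.13, adjusted p = 0.0323). Its knockout pair was below its wildtype pair in 7 of 10 classes, and the pairs overlapped in 3. Of all genes tested, 17.9% to 24.0% were below in each of the 10 classes. In the same classes the 15 astrocyte markers summed to 259.0 and 269.1 CPM in knockout and 324.9 and 307.7 CPM in wildtype excitatory neurons. They summed to 182.9 and 234.0 CPM in knockout and 216.9 and 258.4 CPM in wildtype inhibitory neurons, which overlapped, and to 246.1 and 254.6 CPM in knockout and 316.0 and 317.0 CPM in wildtype oligodendrocytes. The share of astrocyte nuclei was lower in both knockout libraries, as given above, and the part of RNA from astrocytes in these Slc1a2 values was not tested.

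The calls of Slc1a2 depended on single libraries. In excitatory neurons the call was lost without wildtype replicate 1 or wildtype replicate 2, and with no filter on low counts (edgeR adjusted p = 0.115). In inhibitory neurons it was lost without wildtype replicate 2 and with DESeq2 (adjusted p = 0.0709). In oligodendrocytes it was lost without wildtype replicate 2 and with no filter (edgeR adjusted p = 0.0728).

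Excitatory neurons had 2 members past the test of 10, beside 836 of 19022 genes (4.39%). The other was Gfap, with 1.97 and 2.61 CPM in knockout and 1.07 and 0.899 CPM in wildtype nuclei (log2 fold change 1.19 ± 0.27, edgeR adjusted p = 0.0454). The part of RNA from astrocytes in these low Gfap values was not tested. The Gfap call rested on 112 UMIs in knockout and 56 UMIs in wildtype nuclei, and was lost with DESeq2 (adjusted p = 0.150). It was also lost without knockout replicate 2 (0.95), wildtype replicate 1 (1.32) or wildtype replicate 2 (1.06). In 6 of 10 classes the knockout pair was above the wildtype pair for Gfap, and in 4 they overlapped. Outside astrocytes and excitatory neurons this order rested on few UMIs. Knockout against wildtype libraries held 7 and 6 against 1 and 6 in inhibitory neurons, and 3 and 6 against 2 and 2 in microglia. Fibroblasts held 2 and 4 against 2 and 1, and endothelial cells 1 and 1 against 0 and 0. In inhibitory neurons, microglia, fibroblasts and endothelial cells Gfap had too few UMIs to be tested. Of the genes with enough UMIs to be tested, 16.1% to 30.0% were above in each of the 10 classes. Kcnj10 measured 2.54 and 2.04 CPM in knockout and 3.23 and 4.68 CPM in wildtype excitatory neurons (-0.81 ± 0.24, adjusted p = 0.0967). Without knockout replicate 1 the fold change was -0.97 for Kcnj10 and -0.44 for Slc4a4.

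Inhibitory neurons had 2 of 7 members past the test, beside 183 of 14451 genes (1.27%). The other was Slc4a4, with 129.4 and 118.4 CPM in knockout and 164.2 and 174.8 CPM in wildtype nuclei (log2 fold change -0.47 ± 0.10, edgeR adjusted p = 0.0236). That call was lost without wildtype replicate 1 (-0.52), wildtype replicate 2 (-0.43) or knockout replicate 2 (-0.43), and with DESeq2 (adjusted p = 0.0727). Oligodendrocytes had 1 of 8 members past the test, beside 109 of 12300 genes (0.886%). Their Kcnj10 measured 69.5 and 64.7 CPM in knockout and 89.9 and 89.4 CPM in wildtype nuclei (-0.40 ± 0.15, adjusted p = 0.245), without overlap.

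In the remaining classes no member passed. These were oligodendrocyte precursors (0 of 6, beside 0.0219% of genes), microglia (0 of 5, beside 0.123%), committed oligodendrocyte precursors (0 of 1), endothelial cells (0 of 1), mural cells (0 of 3) and fibroblasts (0 of 5), the last 4 with 0.0% of genes called (edgeR). DESeq2 called 0 members in these classes too, and 1 member had an unadjusted p under 0.05 in oligodendrocyte precursors, beside 7.1% of genes, and 1 in microglia, beside 11.6%. In oligodendrocyte precursors that was Glul, with 31.8 and 30.1 CPM in knockout and 63.7 and 61.8 CPM in wildtype nuclei (log2 fold change -1.02 ± 0.29, adjusted p = 0.492). In microglia it was Slc1a2, with 353 and 317 CPM in knockout and 443 and 462 CPM in wildtype nuclei (-0.44 ± 0.16, adjusted p = 0.302).

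**Figure D4:**
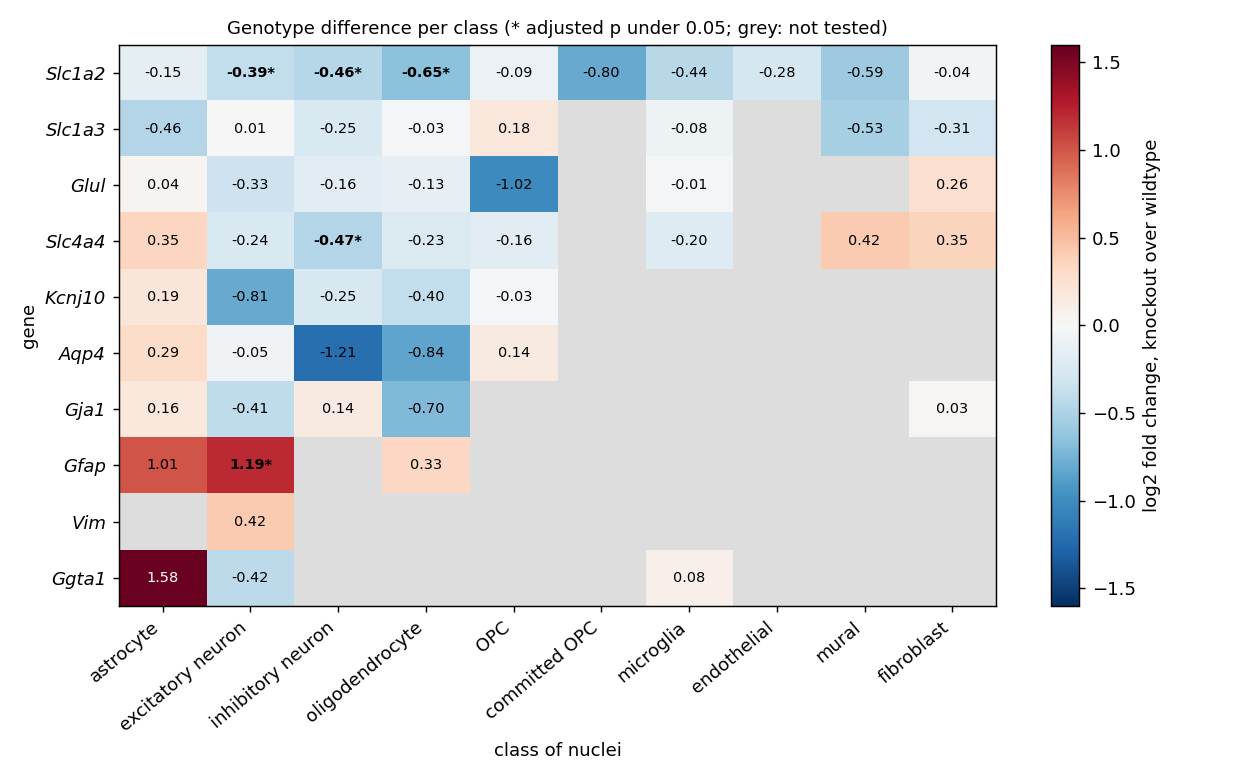
Log2 fold change, knockout over wildtype, of each gene (rows) in each class of nuclei (columns; OPC, oligodendrocyte precursor), with a star where the adjusted p is under 0.05 and grey where the gene was not tested. Slc1a2 carries a star in excitatory neurons (-0.39), inhibitory neurons (-0.46) and oligodendrocytes (-0.65), and Slc4a4 is positive in astrocytes (0.35) and negative in inhibitory neurons (-0.47).

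Differences between classes were tested directly. The genotype difference of Slc4a4 was higher in astrocytes than in excitatory neurons by 0.54 ± 0.13 log2 units (edgeR adjusted p = 0.0103), the only 1 of 10 members called there, beside 155 of 18914 genes (0.819%). That call was lost without wildtype replicate 1 (0.60), wildtype replicate 2 (0.48) or knockout replicate 2 (0.32). Without knockout replicate 1 the difference was -0.91 for Slc1a3 and 1.23 for Kcnj10. For Glul it was 0.66 without knockout replicate 2. Against inhibitory neurons, a comparison added after the data were seen, the Slc4a4 difference was 0.80 ± 0.12 (edgeR adjusted p = 3.91e-05). Slc4a4 was the only 1 of 10 members called, beside 80 of 14832 genes (0.539%). With 1 library left out its difference was 0.70 to 0.91. Against oligodendrocytes, also added, the fall of Slc1a2 was smaller in astrocytes by 0.50 ± 0.12 log2 units (edgeR adjusted p = 0.0152). Slc1a2 was the only 1 of 9 members called, beside 58 of 13117 genes (0.442%). The Slc1a2 call was lost without wildtype replicate 2 (0.38), knockout replicate 1 (0.47) or knockout replicate 2 (0.53).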

How the data were processed

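Nuclei of mouse cortex were profiled with 10x 3′ libraries, 1 per animal (2 Setdb1-CK-cKO, 2 wildtype). The deposited matrices are UMI counts. The submitters' processing notes name Cell Ranger 7.1.0 and the build mm10. No source used here says whether introns or strand were used or free RNA was removed. Slc1a2, Glul and Aqp4 each overlap a gene on the other strand, and any part of such genes in their counts was not tested. The 10 genes, their lists and tests were chosen with earlier results of these data known.

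A nucleus needed 500 UMIs, 300 genes and no more than 5% of UMIs from mitochondrial genes. Doublets, 2462 in all, were removed with Scrublet (scanpy 1.11.5). Counts scaled to 10000 and logged, 2000 variable genes without the 10 genes and Def8, 30 components, 15 neighbours and Leiden resolution 1.0 gave 33 clusters. Of these 23 were named from marker lists, by thresholds set after the clusters were seen, and 10 (6406 nuclei) were left unnamed. Names rebuilt here may differ from the study's.

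UMIs were summed per library and class, for classes with at least 30 nuclei in every library. CPM is a gene's share of that sum, as UMIs of the gene over all UMIs of the class, on the usual CPM scale. Tests were edgeR 4.0.16 quasi-likelihood fits (filterByExpr minimum count 10, TMM factors, genotype alone, or a library block for Def8 status and for differences of genotype effects), adjusted by Benjamini-Hochberg over all genes tested, threshold 0.05. Log2 fold changes are knockout over wildtype, or with over without Def8 UMIs, ± standard error (the absolute value over the square root of F). Means rest on 2 animals per genotype. On simulated data a change of 1 log2 unit was found for 51% of genes in astrocytes, 75% in excitatory and 79% in inhibitory neurons. It was found for 6% in the term of genotype and Def8 status, so 0 calls there say little. False calls were 6 of 62 in astrocytes, 27 of 130 in excitatory neurons, 15 of 112 in inhibitory neurons and 5 of 84 in oligodendrocytes. Calls near the threshold are therefore uncertain. Alternatives were DESeq2 1.42.0, other scaling, no filter, a replicate block, each library left out, doublets kept, the members among the clustering genes, nuclei thinned to 1000 UMIs and at least 2 Def8 UMIs. A fit with the unnamed clusters rich in astrocyte markers put into the astrocyte class was not planned at first. Genes to be named were all members, Def8, each list's called genes or else its 2 smallest p, and the 3 most alike genes per member. Not all of these are printed. Some results of the potassium, water and pH list are not reported here. Coordinates are from GENCODE M21 (GRCm38) and upstream windows from RefSeq.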

Additional observations from a re-analysis of the deposited data

Results flagged for a closer look

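A difference in genotype effect between classes of nuclei that passed its own test marked 3 results for a closer look. The genotype effect of Slc4a4 was higher in astrocytes than in excitatory neurons by 0.5444 log2 units. It was higher in astrocytes than in inhibitory neurons by 0.80223 log2 units. The genotype effect of Slc1a2, negative in both classes, was less negative in astrocytes than in oligodendrocytes by 0.50066 log2 units. The tests and the values without single libraries stand with each result above.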

How the results depend on the processing

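Counts of members called moved with the fit, as did the share of all genes called, given in parentheses. Counts with 1 library left out are not listed here, since such fits leave 1 animal in a genotype. In astrocytes the count was 0 (1.18%), against 1 with DESeq2's size factors (1.26%), 3 with no filter on low counts (1.59%) and 2 with doublets kept (1.15%). It stayed 0 with the members among the clustering genes (0.304%) and with the unnamed clusters rich in astrocyte markers added (0.318%). In excitatory neurons it was 2 (4.39%), against 0 with no filter (0.642%) and 1 with DESeq2 (4.21%). In inhibitory neurons it was 2 (1.27%), against 0 with DESeq2 (0.554%). In oligodendrocytes it was 1 (0.886%), against 0 with no filter (0.097%). In astrocytes with Def8 UMIs it was 0 (0.227%), against 1 with no filter (0.358%). Between nuclei with and without Def8 UMIs it was 0 (0.952%), against 1 with no filter (0.302%) and 1 with thinned nuclei (0.977%). It was 2 in knockout libraries alone (2.2%), also thinned (2.36%) or with at least 2 Def8 UMIs (2.27%). That last threshold was run in knockout libraries alone, since 0 wildtype astrocyte nuclei held 2. The term of genotype and Def8 status gave 0 (0.0918%), against 2 with no filter (0.144%). The term of astrocytes and excitatory neurons gave 1 (0.819%), against 2 with no filter (0.545%), and that of astrocytes and oligodendrocytes gave 1 (0.442%), also with no filter (0.285%).

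The replicate block (the replicate number as a term) gave 4 members in astrocytes (7.24%), 5 in excitatory neurons (20.7%), 1 in microglia (3.19%), 2 in astrocytes with Def8 UMIs (1.5%) and 1 in those without (4.71%). Deviations of libraries with the same number correlated at 0.103 to 0.456 across genes. Libraries with the same number were alike in Xist and Uty, while the labels give no shared litter, batch or day, and the block and sex cannot be told apart. The Glul fold change in astrocytes (0.04) turned to -0.0057 with no filter and -0.0051 with doublets kept, and ranged from -0.41 to 0.36 with 1 library left out, below 0 without wildtype replicate 2 or knockout replicate 1. That of Kcnj10 (0.19) ranged from -0.017 without wildtype replicate 1 to 0.38 without wildtype replicate 2. The cause of these moves was not tested. Of the other values of single genes 335 kept their side of the threshold and direction, 36 crossed it upward and 22 downward. Ggta1, Gfap and Vim rest on few UMIs, which limits what 2 animals per genotype can show.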
